A study of Mus musculus with 6 samples.

Results

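The genes for fatty acid oxidation, together with genes that the peroxisome proliferator-activated receptors (PPARs) induce, were examined in islets of diabetic db/db mice and of db/m control mice. The genes were taken from a named list of 33 symbols, and all 33 were found among the 44713 genes of the deposited table. The rule for the list names genes by function and used no measured value, but the list was chosen with earlier results of these data known. Its counts are therefore descriptions and carry no test of the list. The db/db mice were homozygous for Leprdb, a mutation that disables the leptin receptor and causes obesity and diabetes, and the labels give their genotype as Lepr-/-. The controls were littermates that the study names db/m, a notation for heterozygous carriers of Leprdb, whereas the labels name them wild type. The methods of the study give the BKS.Cg-Dock7m+/+Leprdb/Nju strain, whereas the labels give C57BL/6. All mice were males of 10 weeks on a normal diet, and islets of 3 mice per genotype were sequenced after removal of rRNA, with 1 library per mouse. Since db/db mice become obese and hyperglycemic, the leptin receptor defect and its metabolic consequences cannot be told apart in this model.

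Long-chain fatty acids enter the mitochondrion through the carnitine shuttle and are then shortened by repeated rounds of dehydrogenation, hydration, a second dehydrogenation and thiolysis. Electrons from the acyl-CoA dehydrogenases pass through the electron transfer flavoproteins to the respiratory chain, and very long chains are shortened first in peroxisomes. PPARα, a nuclear receptor that fatty acids activate, induces many of these enzymes during fasting and lipid overload. In β cells, long-lasting exposure to fatty acids impairs insulin secretion, a condition named lipotoxicity.

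The gene counts of a library summed to 15641797 to 20614531. Levels are given as counts per 1000000 (CPM), with library sizes scaled by the TMM method of edgeR, and 3 counts corresponded to 0.110 to 0.241 CPM. Log2 fold changes are db/db relative to db/m and are followed by ± their standard error (SE), and adjusted p-values are those of edgeR's quasi-likelihood test over all tested genes unless another tool is named. The libraries held much RNA of exocrine tissue. Genes of acinar cells, the enzyme-secreting cells around the islets, took 71.0% to 77.3% of the counts in db/db mice and 53.8% to 69.2% in db/m mice. The 18 β-cell markers were detected and took 0.197% to 0.701% in db/db mice and 0.871% to 4.57% in db/m mice. In such bulk tissue, fewer cells of a type and less RNA per cell cannot be told apart. The db/m mouse with replicate number 1 (db/m1) stood apart, with the lowest acinar and the highest β-cell share.

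Of the 33 genes, 29 passed the filter on low counts, and none of these passed the correction over all genes tested. The log2 fold change was positive for 26 of the 29 genes, for 21 when the acinar content of each library entered the model and for 16 when libraries were scaled by their size alone. Their median log2 fold change was 0.66, against -0.00 over the 12760 genes tested. The adjusted p of edgeR was under 0.05 for 0 of these 29, a threshold that 0.619% of all tested genes passed. At an unadjusted p under 0.05, 13 genes had higher levels in db/db mice, where 5.04% of all tested genes did so, and 0 had lower levels, where 9.89% of all tested genes did. The 13 genes comprised 10 of the 15 mitochondrial enzymes and electron transfer flavoproteins, 1 peroxisomal enzyme, 1 thioesterase and the PPAR-induced gene Angptl4. With DESeq2, the same 13 genes had an unadjusted p under 0.05 and higher levels, against 3.47% of its genes, and 3 of them, Acaa2, Etfdh and Acot2, had an adjusted p under 0.05, against 4.59% in either direction. With no filter on low counts, edgeR gave an adjusted p under 0.05 for 7 genes, Acadl, Acaa2, Eci1, Etfdh, Acot1, Acot2 and Angptl4, against 3.78% of all genes. The levels of all 3 db/db mice lay above those of all 3 db/m mice for 9 of the 29 genes, against 8.53% of all tested genes, and below them for 0 genes, against 12.6%. Acot1, one of these 9 and of the 26 positive genes, was above the filter level in 3 db/db libraries but in 1 db/m library. It thus entered mainly through the group where it is high.

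The log2 fold changes of cell type markers went in both directions. Of 33 acinar markers, 32 had a positive log2 fold change, with a median of 0.69, close to that of the fatty acid oxidation and PPAR genes. The median was 1.15 for 11 tested stromal markers, of which 9 were positive, and 0.65 for 11 leukocyte and macrophage markers, of which 7 were positive. In each of these 2 lists, 1 marker (9.09%) was higher at an unadjusted p under 0.05, beside 5.04% of all tested genes. For 9 tested duct markers the median was 0.53, and 7 were positive. It was -0.66 for 8 tested markers of other endocrine cells and -0.59 for 9 endothelial markers, and 7 of each list were negative. All 18 β-cell markers had a negative log2 fold change, with a median of -2.77. With the acinar content in the model, the median of the fatty acid oxidation and PPAR genes was 0.37, and 3 of the 29 genes had an unadjusted p under 0.05. That content, as a mean log2(CPM + 1), was 12.96, 12.12 and 12.36 in db/db mice and 10.77, 11.85 and 12.11 in db/m mice. As it was higher in every db/db mouse, this fit cannot fully tell acinar content and genotype apart. The part of the other cell types in these levels was not tested.

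**Figure D1:**
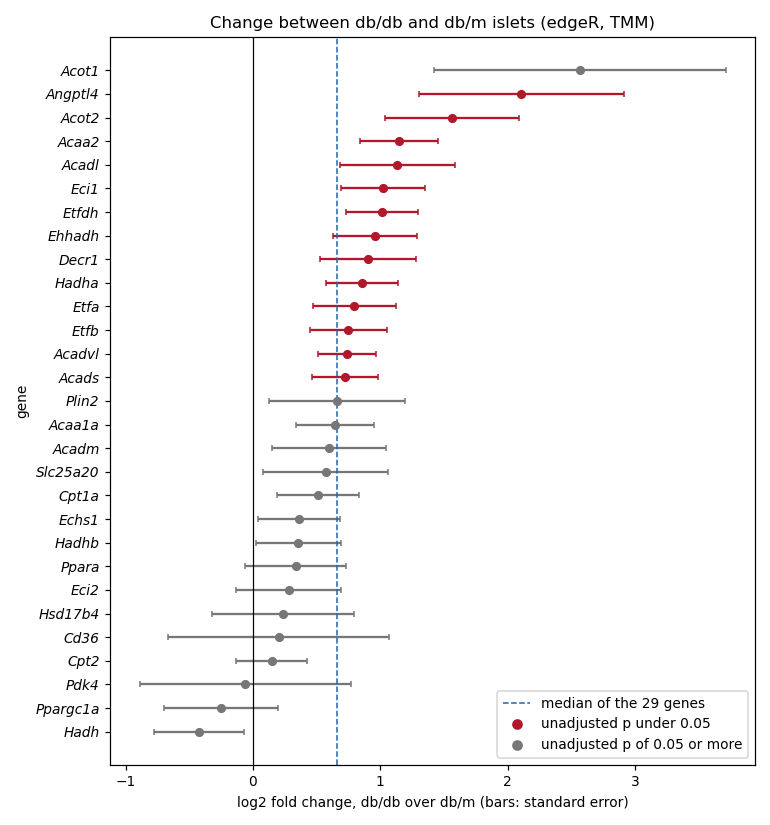
Log2 fold change between db/db and db/m islets for the 29 tested genes (horizontal axis), with bars for the standard error and red points for an unadjusted p under 0.05. The 13 red points lie between 0.72 and 2.11, and Hadh lies lowest at -0.42.

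In the carnitine shuttle, the gate of mitochondrial oxidation, and in fatty acid uptake, 0 of 4 tested genes had an unadjusted p under 0.05 with edgeR. Of all tested genes, 14.9% had one in either direction, and with so few genes a count of 0 is close to that share. All 4 log2 fold changes were positive, with a median of 0.36. Cpt1a encodes the rate-limiting carnitine palmitoyltransferase of the outer membrane. Its level was 32.99, 17.5 and 35.0 CPM in the db/db mice 1, 2 and 3, and 14.4, 24.6 and 20.95 CPM in the db/m mice. The groups overlapped through the db/db mouse 2, and the log2 fold change was 0.51 ± 0.32 (edgeR, adjusted p = 0.490). Cpt2, whose product restores acyl-CoA inside the mitochondrion, had 12.9, 7.59 and 13.2 CPM in db/db mice and 11.9, 9.49 and 9.04 CPM in db/m mice, with a log2 fold change of 0.15 ± 0.28. Slc25a20, the carnitine-acylcarnitine translocase, had a log2 fold change of 0.57 ± 0.49. Cpt1b, the muscle isoform of Cpt1a, had 0 to 9 counts per library and was too low to be tested. Cd36, a fatty acid transporter that is also abundant in endothelial cells and macrophages, had 5.54, 0.598 and 3.56 CPM in db/db mice and 5.95, 1.69 and 0.596 CPM in db/m mice. These values spread about as widely within each group as over both, and the sign of the log2 fold change of 0.20 ± 0.87 turned with other scaling or when single mice were left out. The summed level of 12 endothelial markers also varied within groups, from 17.1 to 34.4 CPM in db/db mice and from 26.7 to 61.3 CPM in db/m mice, and that of 11 leukocyte and macrophage markers from 31.9 to 110 CPM and from 11.1 to 129 CPM. Their part in the levels of Cd36 was not tested.

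The acyl-CoA dehydrogenases carry out the first step of each round, each for a range of chain lengths. Acadvl, for very long chains, had 18.7, 17.5 and 24.6 CPM in db/db mice and 11.4, 13.05 and 12.02 CPM in db/m mice. The groups did not overlap, and the log2 fold change was 0.74 ± 0.23 (edgeR, adjusted p = 0.177). Acads, for short chains, had 10.3, 11.2 and 16.1 CPM in db/db mice and 8.30, 7.80 and 6.71 CPM in db/m mice, which did not overlap either (log2 fold change 0.72 ± 0.26). Acadl, for long chains, had 32.1, 19.6 and 34.5 CPM in db/db mice against 5.54, 21.9 and 11.9 CPM in db/m mice. The db/m mouse 2 exceeded the lowest db/db mouse, and the log2 fold change was 1.13 ± 0.45 (edgeR, adjusted p = 0.285). Acadm, for medium chains, showed the same placement of the mice, with 22.8, 17.8 and 23.1 CPM in db/db mice and 6.53, 25.7 and 10.02 CPM in db/m mice. Here the db/m mouse 2 was the highest of all mice. The log2 fold change was 0.59 ± 0.45, and 1.39 without the db/m mouse 2.

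Among the later steps of the round, the trifunctional protein subunit Hadha and the thiolase Acaa2 had higher levels in every db/db mouse than in every db/m mouse. Acaa2, which releases acetyl-CoA at the end of the round, had 29.1, 16.6 and 32.5 CPM in db/db mice. In db/m mice it had 9.43, 14.5 and 11.4 CPM. Its log2 fold change was 1.15 ± 0.30. Its adjusted p of 0.122 from edgeR was the smallest of the 29 genes. Hadha, which carries the hydratase and dehydrogenase activities for long chains, had 77.5, 70.5 and 98.3 CPM in db/db mice and 32.7, 60.5 and 43.2 CPM in db/m mice (log2 fold change 0.85 ± 0.28, adjusted p = 0.208 with edgeR). Its partner subunit Hadhb had a log2 fold change of 0.36 ± 0.33 and levels of 3.95 to 8.94 CPM over all mice. Echs1, the hydratase for shorter chains, had a log2 fold change of 0.36 ± 0.32.

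Hadha and Hadhb are read in opposite directions from neighbouring start sites on chromosome 5, and the stretch between both annotated starts is shown here because it lies between the genes of both subunits. It covers 85 bases with a GC content of 69.4%, read on the strand of Hadhb from the GRCm38.p6 genome of RefSeq.
Hadha-Hadhb, chr5:30155163-30155247: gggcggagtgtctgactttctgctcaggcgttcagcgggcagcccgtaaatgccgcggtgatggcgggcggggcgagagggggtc
Per kilobase of annotated exons, Hadha reached 9.41 CPM in db/db mice and 5.21 CPM in db/m mice, and Hadhb 1.05 and 0.818 CPM. The exon length counts the exons of all annotated transcripts, and exons of Hadha overlap Garem2 on the other strand.

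Hadh, the dehydrogenase for short-chain hydroxyacyl-CoA, went against the other mitochondrial enzymes. It is abundant in β cells, where it restrains insulin secretion. Its mean per kilobase of annotated exons in db/m mice, 16.2 CPM, was the highest of the 33 genes. That mean includes the high value of 1 mouse, db/m1. In db/db mice Hadh ranked 4 among the 33 genes, with 12.1 CPM per kilobase. The db/db mice had 63.1, 54.6 and 62.5 CPM and the db/m mice 130, 51.3 and 60.0 CPM. The mouse db/m1, which also had the highest β-cell share, was alone above the others. The log2 fold change was -0.42 ± 0.35 (edgeR, adjusted p = 0.605) and 0.13 without db/m1. The summed level of the β-cell markers was 3267, 7059 and 5926 CPM in db/db mice and 26259, 8411 and 8970 CPM in db/m mice, and its part in the values of Hadh was not tested.

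The enzymes that prepare unsaturated fatty acids for oxidation showed a similar picture. Eci1, an enoyl-CoA isomerase, had 24.4, 18.7 and 27.6 CPM in db/db mice and 7.85, 17.5 and 9.48 CPM in db/m mice. The db/m mouse 2 came close to the lowest db/db mouse without reaching it, and the log2 fold change was 1.02 ± 0.33 (edgeR, adjusted p = 0.193). Decr1, a dienoyl-CoA reductase, had 16.2, 8.43 and 20.7 CPM in db/db mice and 6.35, 6.29 and 11.6 CPM in db/m mice, which overlapped (log2 fold change 0.90 ± 0.38). Eci2, an isomerase found in both mitochondria and peroxisomes, had a log2 fold change of 0.28 ± 0.41.

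All 3 genes of the electron transfer flavoprotein system were among the 13 genes. Etfdh, which hands the electrons to ubiquinone, had 41.5, 27.1 and 34.4 CPM in db/db mice and 11.6, 19.6 and 19.8 CPM in db/m mice. The groups were apart, with a log2 fold change of 1.01 ± 0.28 (edgeR, adjusted p = 0.140). The flavoprotein subunit gene Etfa had 28.7, 13.6 and 21.5 CPM in db/db mice and 8.74, 13.4 and 14.6 CPM in db/m mice (log2 fold change 0.80 ± 0.32). Etfb, the other subunit, had 37.8, 17.4 and 34.1 CPM in db/db mice and 17.9, 17.2 and 18.0 CPM in db/m mice (log2 fold change 0.75 ± 0.30). For both subunits the db/db mouse 2 lay within the range of the db/m mice. Per kilobase of exon, Etfb was the highest of the 33 genes in db/db mice, with 25.6 CPM, against 15.2 CPM in db/m mice.

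In the peroxisome, Ehhadh, the bifunctional enzyme and a classical PPARα target, had 23.9, 16.9 and 25.6 CPM in db/db mice and 6.97, 11.2 and 16.1 CPM in db/m mice. The groups did not overlap (log2 fold change 0.96 ± 0.33, adjusted p = 0.219 with edgeR). The thiolase Acaa1a had a log2 fold change of 0.64 ± 0.31, and Hsd17b4, which acts on branched and very long chains, one of 0.23 ± 0.56. Acaa1b, a near copy of Acaa1a, had 1 to 10 counts per library and was not tested, and it shares 30.5% of its 50-base stretches with Acaa1a. Bdh1, which interconverts the ketone bodies, had 0, 5 and 0 counts in db/db mice and 10, 5 and 6 counts in db/m mice, so that differences in this gene were not detectable at this depth.

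The largest fold changes of the 29 genes belonged to 2 acyl-CoA thioesterases and to Angptl4. Acot1, in the cytosol, and Acot2, in mitochondria, split acyl-CoA into fatty acid and coenzyme A and are induced by PPARα. Both lie on the forward strand of chromosome 12 of GRCm38, Acot2 from 83987861 to 83993873 and Acot1 from 84009490 to 84018371. For Acot1, counts of 546, 355 and 593 in db/db mice stood against 8, 293 and 11 in db/m mice. As levels, these were 43.8, 21.2 and 39.9 CPM against 0.294, 17.1 and 0.596 CPM. The db/m mouse 2 thus lay near the db/db mice, whereas db/m mice 1 and 3 had almost no reads. With all mice, Acot1 was above the filter level in 3 db/db libraries and 1 db/m library. It was thus tested mainly through the group where it is high, and its place among the largest fold changes is a description. The log2 fold change of 2.57 ± 1.15 (edgeR, adjusted p = 0.337) became 6.36 without the db/m mouse 2, with an adjusted p of 0.00584 from edgeR (0.223% of all tested genes were under 0.05 in that fit), and lay between 1.99 and 2.83 when any other mouse was left out. In that fit, both db/m mice left were below the filter level, and Acot1 entered only through the db/db mice, where it is high, so this p-value is given as a description. Acot2 had 24.5, 4.42 and 22.5 CPM in db/db mice and 5.18, 6.35 and 5.85 CPM in db/m mice. Its db/m mice were close together, and the db/db mouse 2 was the lowest of all mice (log2 fold change 1.56 ± 0.53, adjusted p = 0.214 with edgeR). Of the 50-base stretches of Acot2, 24.5% also occur in Acot1, so reads may have been split between both genes. With the counts of both genes summed, a setting chosen after seeing the data, the log2 fold change was 2.15 ± 0.59 (edgeR, adjusted p = 0.132).

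**Figure D2:**
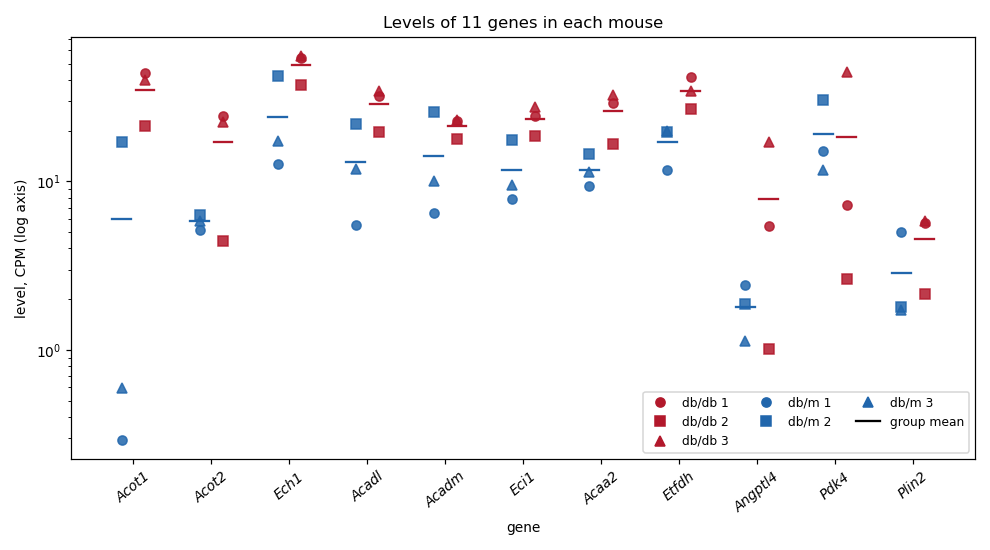
Levels of 11 genes in each mouse (vertical log axis, CPM), with 1 symbol per replicate number, db/db mice in red, db/m mice in blue and group means as short lines. The genes were chosen for display after their values were seen. The db/m mouse 2 (blue square) lies far above the other db/m mice for Acot1, and the db/db mouse 3 (red triangle) is the highest for Angptl4 and Pdk4.

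Of the 3 PPAR-induced genes outside the oxidation pathway, 1 had a higher level at an unadjusted p under 0.05, where 5.04% of all tested genes did. Angptl4, a secreted inhibitor of lipoprotein lipase, had 5.46, 1.02 and 17.1 CPM in db/db mice and 2.42, 1.86 and 1.14 CPM in db/m mice. The db/db mice 1 and 3 lay above all db/m mice and the db/db mouse 2 below them. The log2 fold change was 2.11 ± 0.80 (edgeR, adjusted p = 0.269) and 0.83 without the db/db mouse 3. Pdk4, a kinase that shuts off pyruvate dehydrogenase when fat is burned, had 7.23, 2.63 and 44.9 CPM in db/db mice and 15.2, 30.2 and 11.6 CPM in db/m mice. Here the db/db mice 1 and 2 were the lowest of all mice and the db/db mouse 3 the highest. Its log2 fold change of -0.06 ± 0.83 became -1.95 without the db/db mouse 3. Plin2, the coat protein of lipid droplets, had 5.70, 2.15 and 5.85 CPM in db/db mice and 4.99, 1.81 and 1.73 CPM in db/m mice, and the groups overlapped (log2 fold change 0.66 ± 0.53). It was 1.38 without db/m1, the only db/m mouse with a level similar to those of db/db mice 1 and 3.

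For the receptors and the coactivator themselves, the differences were smaller than their standard errors. Ppara had 12.2, 12.7 and 11.0 CPM in db/db mice and 4.11, 14.2 and 10.2 CPM in db/m mice (log2 fold change 0.34 ± 0.40, adjusted p = 0.723 with edgeR). The lowest value was again that of db/m1 and the highest that of the db/m mouse 2. Ppargc1a, which encodes the coactivator PGC-1α, had 3.93, 7.83 and 2.82 CPM in db/db mice and 3.52, 8.27 and 5.74 CPM in db/m mice (log2 fold change -0.25 ± 0.45). Ppard had 5 to 29 counts per library, with 0.401, 0.359 and 1.68 CPM in db/db mice and 1.06, 0.524 and 0.596 CPM in db/m mice, and it did not pass the filter.

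**Figure D3:**
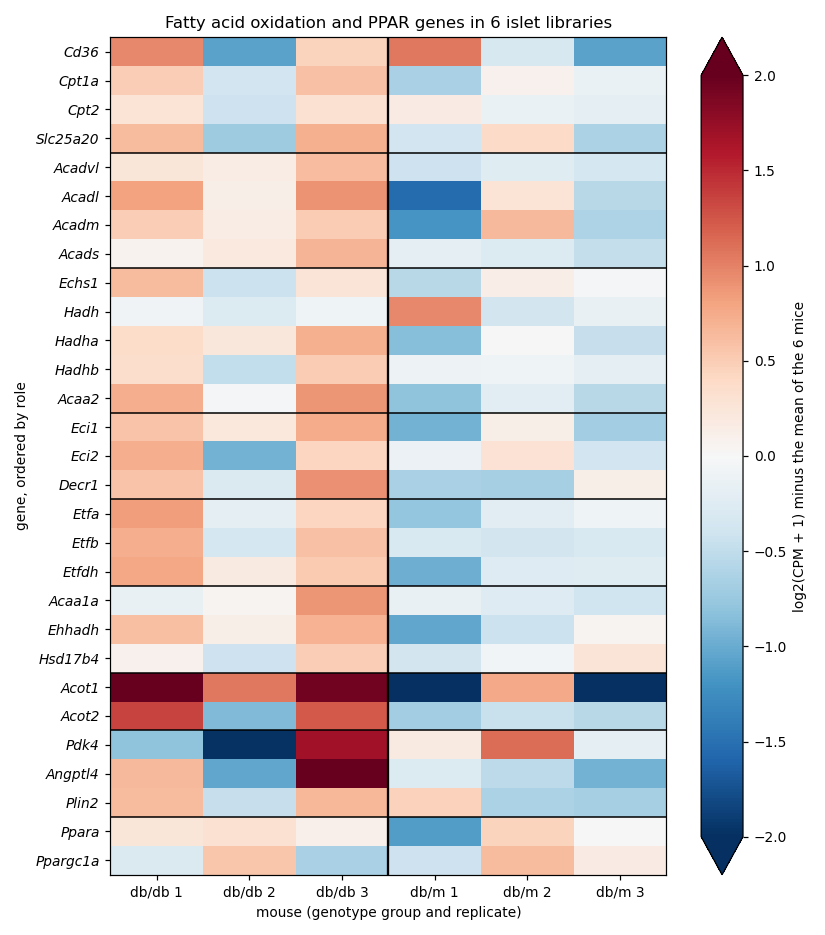
Level of each of the 29 tested genes (rows, ordered by role) in each mouse (columns), as log2(CPM + 1) minus the mean of the 6 mice; red is above and blue below that mean. The db/db mice 1 and 3 are red for most enzymes, the db/db mouse 2 is paler, and db/m1 is the bluest column for Acadl and Acadm.

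Within the groups, the mice kept similar places over many of these genes. The db/db mouse 2 had the lowest level of its group for 25 of the 29 genes, whereas it was lowest for 33.3% of all tested genes. The db/db mouse 3 was the highest of all 6 mice for 17 of the 29 genes, against 10.7% of all tested genes. Of the db/m mice, mouse 2 was highest in its group for 16 genes (26.8% of all tested genes) and mouse 1 lowest for 16 genes (37.3%). These shares describe the libraries and carry no test, since the genes of a library are not independent. The acinar share of counts was 77.3%, 71.5% and 71.0% in db/db mice 1, 2 and 3, and 53.8%, 66.6% and 69.2% in the db/m mice, and its part in this order was not tested.

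When each mouse was left out in turn, the calls at an unadjusted p under 0.05 depended on single libraries. Acaa2, Eci1 and Etfdh kept that call in all 6 fits. None of these 3 genes kept it with library size alone or with the acinar content in the model. With the acinar content, their log2 fold changes were 0.77, 0.63 and 0.46. Without the db/db mouse 3, the other 10 genes lost it, and 4 of 29 genes were left, Pdk4 with a lower level among them, against 10.8% of all tested genes in either direction. Acadl, Decr1, Etfa, Etfb and Acot2 lost it without the db/db mouse 1, and none of the 13 did so without the db/db mouse 2. Acadl, Decr1 and Etfa lost it without db/m1, and Decr1, Etfb and Angptl4 without the db/m mouse 2. Acadl, Acads, Etfb and Angptl4 lost it without the db/m mouse 3. Of all tested genes, 10.9%, 13.7% and 10.8% were under that threshold in either direction without the db/db mice 1, 2 and 3, and 10.8%, 11.2% and 19.8% without the db/m mice 1, 2 and 3. The median log2 fold change of the fatty acid oxidation and PPAR genes stayed between 0.51 and 0.82.

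The difference is one relative to the rest of the transcriptome. With library size in place of TMM scaling, 0 of the 29 genes had an unadjusted p under 0.05 with edgeR, where 0.478% of all tested genes were higher and 18.6% lower at that threshold. The calls over all genes then split into 61 higher and 2379 lower, against 643 higher and 1262 lower with TMM scaling. This scaling lowered the median of all tested genes to -0.59 and that of the fatty acid oxidation and PPAR genes to 0.09. The distance between both medians was 0.68, against 0.66 with TMM scaling, and 26 of the 29 genes were above the median of all genes under either. With the replicate number as a block, 9 of 29 genes had an unadjusted p under 0.05 and higher levels, against 2.36% of all tested genes. When each library's acinar content, averaged over its acinar genes as log2(CPM + 1), entered the model, 3 of 29 genes, Acadvl, Acads and Acaa1a, had an unadjusted p under 0.05 and higher levels, against 4.47% of all tested genes. The median over all genes was then -0.04. Since the acinar content was higher in every db/db mouse than in every db/m mouse, this fit cannot fully separate it from genotype.

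**Figure D4:**
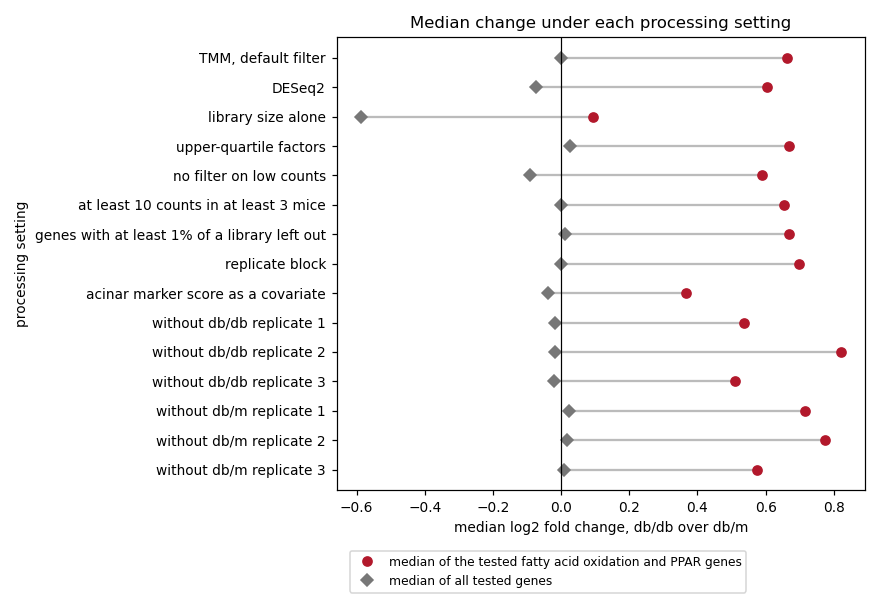
Median log2 fold change between db/db and db/m islets (horizontal axis) of the tested fatty acid oxidation and PPAR genes (red circles) and of all tested genes (grey diamonds) under each processing setting. Library size alone moves both medians down to 0.09 and -0.59, and the acinar covariate brings the red circle to 0.37.

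Further genes of the pathway, in lists of 136 genes beyond the 33, leaned the same way with smaller counts. Of the 106 that were tested, 13 had higher and 3 lower levels in db/db mice at an unadjusted p under 0.05, which is 12.3% and 2.83% of them, beside 5.04% and 9.89% of all tested genes. The 13 include Plin5 and Creb3l3, which were above the filter level in 3 db/db libraries each but in 0 and 1 db/m libraries. Both entered through the group where they are high. None had an adjusted p under 0.05 with edgeR, and their median log2 fold change was 0.24. Ech1, a dienoyl-CoA isomerase, had 53.9, 37.4 and 55.2 CPM in db/db mice against 12.7, 42.0 and 17.3 CPM in db/m mice. The db/m mouse 2 again lay among the db/db mice, above the lowest of them.

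In the list for uptake, binding, activation and release of fatty acids, 5 of 24 tested genes (20.8%) had higher levels at an unadjusted p under 0.05. Lower levels were found for 0 genes. Of all tested genes, 5.04% were higher and 9.89% lower at that threshold. The 5 genes include Plin5, which was tested through the db/db mice only. The median log2 fold change of the list was 0.21. Mgll, the monoglyceride lipase, had 41.1, 44.7 and 52.3 CPM in db/db mice and 17.0, 23.4 and 29.5 CPM in db/m mice (log2 fold change 0.98 ± 0.26, adjusted p = 0.121 with edgeR). Plin5, the droplet coat protein that tethers droplets to mitochondria, had 1.45, 0.658 and 1.55 CPM in db/db mice and 0.184, 0.524 and 0.108 CPM in db/m mice. It was above the filter level in the db/db mice only and was tested through the group where it is high, so its log2 fold change of 2.16 ± 0.72 is a description. Hilpda, an inhibitor of lipolysis, had 3.69, 2.21 and 3.30 CPM in db/db mice and 1.73, 1.11 and 1.73 CPM in db/m mice, and the groups did not overlap. Other genes of this list, picked after their values were seen, had log2 fold changes near or below 0, namely the triglyceride lipase Pnpla2 (-0.13 ± 0.32), the hormone-sensitive lipase Lipe (-0.12 ± 0.40) and the droplet protein Plin4 (-0.64 ± 1.26). For Plin4, levels were 27.4, 5.56 and 26.9 CPM in db/db mice and 1.32, 89.4 and 2.65 CPM in db/m mice. The db/m mouse 2 was thus the highest of all mice, whereas the other db/m mice lay below every db/db mouse. The list of PPAR partners and regulators of fatty acid oxidation had 27 tested genes, with a median log2 fold change of 0.08. At an unadjusted p under 0.05, 2 of them were higher and 2 lower (7.41% each), beside 5.04% and 9.89% of all tested genes. Rxrb, 1 of the higher genes, had a log2 fold change of 0.78 ± 0.28, whereas Rxra had 0.34 ± 0.54. Of the 106 further genes tested, 3 (2.83%) had lower levels at that threshold, beside 9.89% of all tested genes, namely Oxct1, Prkaa1 and Lpin1. Oxct1, which is needed to burn ketone bodies, had a log2 fold change of -0.84 ± 0.24. Prkaa1, a catalytic subunit of AMP kinase, had -0.89 ± 0.27. Lpin1, a phosphatidate phosphatase and coactivator, had -1.13 ± 0.40. Pparg and Ucp2 had log2 fold changes of 0.42 ± 0.37 and 0.19 ± 0.33.

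Oxidative phosphorylation and fatty acid synthesis are given beside these genes, without a test of the difference. Of 72 tested genes for nuclear-encoded oxidative phosphorylation, 6 (8.33%) had an unadjusted p under 0.05 and higher levels and 0 had lower levels, beside 5.04% and 9.89% of all tested genes, with a median log2 fold change of 0.27. Of 19 tested genes for fatty acid synthesis and desaturation, 1 (5.26%) was higher and 4 (21.1%) lower at that threshold, beside the same shares of all genes, with a median of 0.15. The higher gene was Scd1, a fatty acid desaturase, whose log2 fold change of 1.74 ± 0.26 passed the correction over all genes (edgeR, adjusted p = 0.0246). Adipocyte RNA was traced as well, since fat cells are rich in PPAR targets. Adipoq had 0 counts in each db/db mouse and 8, 10 and 0 counts in the db/m mice, and Lep had 0 counts in every library. The summed level of 12 adipocyte markers, most of it from Lpl, was 73.8 to 109 CPM in db/db mice and 57.6 to 109 CPM in db/m mice.

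The start regions were searched for the motif that PPARs bind together with RXR, a pair of AGGTCA half-sites in the same direction with any 1 base between them. RefSeq promoters of GRCm38.p6, from 250 bases before to 50 bases after the start, were found for 28 of the 33 genes. This motif, searched on both strands, was in 0 of their 29 promoters and in 0.0396% of all 32851 promoters. A looser form with AGGNCA for each half-site was in 0 of 29 and in 0.381% of all promoters. With shares this low, a count of 0 in 29 promoters is close to the share of all promoters for both forms. Sites outside this window were not searched, so the counts do not show whether these genes have such a motif elsewhere. The single half-site AGGTCA, of which the first motif holds a pair, was in 6 of 29 and in 16.3% of all promoters. The matches are shown with up to 8 flanking bases on the strand of the gene, with the half-site or its complement in capitals.
Acadvl, chr11:70015502-70015523: atcaccctAGGTCAggtagaat
Acadm, chr3:153944879-153944893: gTGACCTtcgggctc
Cpt1a, chr19:3323199-3323220: ttccttacTGACCTcctccccg
Echs1, chr7:140116491-140116512: gcccgctcAGGTCAcgggtcca
Plin2, chr4:86670264-86670285: aggaccccTGACCTaagtcaga
Cd36, chr5:17836111-17836132: gcactttaTGACCTgagatttt
Of these genes, Acadvl was among the 13 with an unadjusted p under 0.05. The match of Acadm lies at the edge of the window, so a second half-site before it would not be seen. A match describes the letters in this window, and receptor binding was not measured in these libraries.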

How the data were processed

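RNA-seq libraries of islets from 3 db/db mice and 3 db/m mice were analysed. The authors depleted rRNA, cleaned the reads of adaptors and poor-quality bases, aligned them to mm10, and deposited raw counts per gene symbol without normalization. The paper names TopHat as the mapper, whereas the submitters' processing notes name HISAT2 2.0.4. The counting program, the annotation and the use of strand are not given in the sources used here. Exons of Acadvl, Echs1, Hadha, Eci2, Etfdh and Acaa1a overlap genes on the other strand, so their reads may include reads of those genes.

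Counts were compared in R 4.3.3 with edgeR 4.0.16 (filterByExpr, TMM factors, quasi-likelihood F-test, Benjamini-Hochberg adjustment over 12760 genes, threshold 0.05). Each standard error was taken from the fold change and its F statistic, as the log2 value over the root of F. DESeq2 1.42.0 was an alternative, and the pipeline was tested on simulated data. The default filter corresponded to about 0.605 CPM in at least 3 libraries. Of the 29 tested genes of the list, 27 were above this level in all 6 libraries, and Cd36 and Acot1 were not. Of the 13 further pathway genes with higher levels, Plin5 was above it in no db/m library and Creb3l3 in 1. With 3 mice per group, an exact permutation test of a single value cannot go below 0.1, so none is given.

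Values per mouse are given for genes of the list with an unadjusted p under 0.05, for those with groups that do not overlap and a log2 fold change of at least 1 in size, and for 12 genes named whatever their p (the carnitine, PPAR and other key genes). Of further pathway genes, the 12 with the smallest p and some others whatever their p, Pparg and Ucp2 among them, could be named, and a few of these are not reported here. Genes and lists were chosen with earlier results of these data known. Exon lengths and positions came from GENCODE M21, start regions from RefSeq. Figures were drawn with matplotlib 3.10.9.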

Additional observations from a re-analysis of the deposited data

How the results depend on the processing

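The number of genes over the whole table with an adjusted p under 0.05 was 79, and it was 679 with DESeq2, 21 with library size alone, 52 with upper-quartile factors, 888 with no filter on low counts, 16 with the replicate number as a block, 51 with the acinar covariate, and 10 to 333 with a mouse left out. The count of fatty acid oxidation and PPAR genes with an adjusted p under 0.05 was 3 with DESeq2, 7 with no filter and 0 to 1 with a mouse left out. At an unadjusted p under 0.05 their count was 0 with library size alone, 3 with the acinar covariate, 9 with the replicate block and 4 to 16 with a mouse left out. Their median of 0.66 moved to 0.093 with library size alone and lay between 0.51 and 0.82 with a mouse left out. Of 106 further pathway genes, 16 were at that threshold (14.9% of all tested genes), 8 with library size alone (19.1%), 25 of 127 with no filter (12.4%), 7 with the replicate block (8.84%), 9 with the acinar covariate (10.6%) and 5 to 22 of 106 to 108 with a mouse left out (10.8% to 19.8%). The cause of these shifts was not tested. The labels give the mice shared replicate numbers, but nothing says that these numbers pair mice. The deviations from the group means correlated negatively between mice with equal numbers (-0.53, -0.20 and -0.32). Between mice with unequal numbers, the correlations ranged from -0.26 to 0.45. Deviations within a group are tied by their mean, so these values cannot decide whether the numbers pair mice.

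Some genes changed sign, none of them among the 13. Of the 29 genes, 26 were positive in the main fit, 16 with library size alone and 21 with the acinar covariate. The lists below are partial and cover only genes whose values per mouse are given. With library size alone, where all tested genes had a median of -0.59, log2 fold changes were -0.82 for Cd36, -0.045 for Cpt1a, -0.53 for Cpt2, -0.17 for Plin2 and -0.10 for Ppara. With the acinar covariate they were -0.0077 for Cpt1a, -0.054 for Acadm, 0.29 for Hadh and -0.28 for Ppara. With a mouse left out, they ranged from -0.41 to 1.502 for Cd36, from -0.64 to 0.13 for Hadh, from -1.95 to 0.47 for Pdk4, from -0.0099 to 0.78 for Ppara and from -0.78 to 0.11 for Ppargc1a. At this depth Cpt1b, Acaa1b, Bdh1 and Ppard could not be compared.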
